A study of Mus musculus with 6 samples.

Results

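A set of 8 C-cell, parathyroid and neuroendocrine genes was followed across 6 RNA-seq libraries of sorted mouse thyroid tumor cells. They are Calca, Calcb, Chga, Chgb, Syp, Scg2, Pth and Gcm2, picked by symbol from a table of 35027 genes, and all 8 were found in it. Of these, 6 had a mean of at least 10 reads and entered the test between genotypes, whereas Chgb and Gcm2 are given by their values alone. Calcitonin transcripts mark C cells, and Pth and Gcm2 mark the parathyroid gland. The label thus names 2 kinds of endocrine cell next to the follicle, together with general neuroendocrine genes. Granins fill the hormone granules of both kinds, so granin transcripts do not tell these cells apart.

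The libraries came from thyroid tumors driven by nuclear YAP, with or without mutant Braf, so the comparison made here is of BrafYAP with YAP. YAP is the transcriptional coactivator held in check by the Hippo pathway. There were 3 libraries of YAP tumors (replicates 1, 2 and 3) and 3 of BrafYAP tumors (replicates 1, 2 and 6). All mice carried a Cre recombinase active in thyroid follicular cells, RIK-rtTA, which brings the doxycycline (dox)-dependent activator and the red fluorescent reporter Kate, and the dox-dependent transgene YAPS127A, so the YAP mutant is shared by both groups. BrafYAP mice had in addition BrafV600E, expressed from the endogenous Braf gene after Cre recombination. Dox chow began at 4 weeks of age per the labels, whereas the results text of the study puts it later. About 20000 Kate-positive cells were sorted for each library. By the labels, each YAP library pooled 3 tumors and each BrafYAP library held 1 tumor, whereas the study's methods give 1 tumor of 1 mouse for every replicate. If the labels hold, pooling and genotype cannot be told apart. No wild-type thyroid, sorted C-cell or parathyroid library was analysed here.

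C cells are the calcitonin-producing endocrine cells scattered between thyroid follicles. The parathyroid glands lie beside or within the thyroid lobes and secrete parathyroid hormone, which raises blood calcium, whereas calcitonin lowers it. Both cell types store hormone in dense-core granules, and chromogranins and secretogranins are the acidic proteins that fill these granules. Calca gives calcitonin in C cells and, by alternative splicing, the neuropeptide CGRP (calcitonin gene-related peptide) in neurons, and values per gene do not separate the transcripts. Calcb encodes a second form of CGRP and no calcitonin. Gcm2 is the transcription factor required for parathyroid development.

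The promoters of these genes show what regulatory letters the members share. Several granule genes are classical targets of CREB, which binds the cAMP response element, TGACGTCA, or its core, TGACG. Promoter sequences from RefSeq (GRCm38.p6, the same build as mm10) were found for 7 of the 8 members, and 250 bases before the transcription start were searched on both strands. The full element was present in 2 members, Chgb and Scg2, and in 1.55% of 32851 mouse promoters searched in the same way. Calca and Chga held the core alone. The core is also contained in the full one, and 17.8% of all promoters held it. The 4 windows of 30 bases below are written 5′ to 3′ on the strand of the gene, with the element in capitals.
Calca (chr7:114636404-114636433, minus strand): aagcacagaggTGACGcaatctgtctgggg
Chga (chr12:102554886-102554915, plus strand): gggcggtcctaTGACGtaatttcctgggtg
Chgb (chr2:132781559-132781588, plus strand): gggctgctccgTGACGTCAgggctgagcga
Scg2 (chr1:79440076-79440105, minus strand): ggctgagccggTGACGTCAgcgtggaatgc
The first base of the element stood 65 bases before the RefSeq start in Calca, 44 in Chga, 72 in Chgb and 68 in Scg2. The windows of Chgb and Scg2 lie inside the gene spans given below, which come from another annotation and begin further upstream. Neither form was found in the searched bases of Pth, Syp or Gcm2. The letters of a TATA box, TATAAA, were found in 1 member, Pth, and in 12.4% of all promoters. In Pth they lie 249 to 244 bases before the start, at the far edge of the window and away from where a TATA box works. The site of the GCM factor family, searched as ATGCGGGT, was in 0 members and in 0.207% of all promoters. The matches describe letters in these windows and not binding. The 150 bases before the start of Pth, the member with the highest level per length, hold none of the letters searched and are shown as the promoter of the hormone gene (chr7:113388574-113388723, minus strand).
Pth: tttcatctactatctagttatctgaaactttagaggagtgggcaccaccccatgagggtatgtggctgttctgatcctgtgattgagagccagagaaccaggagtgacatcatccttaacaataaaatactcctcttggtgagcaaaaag

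Values are given as estimated reads, recovered from the deposited TPM as described under the processing, in libraries of 26.2 to 36.9 M reads. At this depth the floor of 3 reads corresponds to 0.0813 to 0.115 reads per M reads (RPM). Of the 48 member values, 42 lay within 0.05 of a whole read, a count that includes the values of 0, which are whole by definition. Intervals of 95% are exact binomial intervals and cover counting error only. In a bulk library, fewer cells of a type and less RNA per cell cannot be told apart.

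Calca (ENSMUSG00000030669, chr7:114631478-114636357, minus strand) was high in 3 libraries of both genotypes. It had 1102, 500 and 30 reads in YAP replicates 1, 2 and 3, and 0, 5 and 880 reads in BrafYAP replicates 1, 2 and 6. Neither genotype was high throughout, and the groups overlapped. YAP replicate 1 held 40.1 RPM (37.8 to 42.6), YAP replicate 2 held 19.1 (17.5 to 20.9) and BrafYAP replicate 6 held 27.2 (25.4 to 29.1), so that these 3 libraries differed among themselves beyond counting error. The other 3 libraries held at most 1.09 RPM. Within BrafYAP, replicate 6 was 200.8-fold above replicate 2 (85.7 to 620), and the 0 reads of replicate 1 allow up to 0.136 RPM.

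Calcb (ENSMUSG00000030666, chr7:114718643-114723365, plus strand) lies on the same chromosome as Calca, and its libraries fell in another order. It had 11, 21 and 4 reads in the YAP libraries and 19, 52 and 296 reads in the BrafYAP libraries. BrafYAP replicate 6 was 6.50-fold above BrafYAP replicate 2 (4.82 to 8.90), and the 5 other libraries held 0.145 to 1.41 RPM. Per exonic kb, Calcb stood at 0.0133 of the level of Calca in YAP replicate 1 (0.00662 to 0.0239), at 0.0560 in YAP replicate 2 (0.0343 to 0.0865) and at 0.448 in BrafYAP replicate 6 (0.392 to 0.512). In the libraries with few Calca reads the ratio was 0.178 in YAP replicate 3 (0.0455 to 0.504) and 13.9 in BrafYAP replicate 2 (5.57 to 44.5), where Calcb exceeded Calca. The ratio of the 2 genes therefore differed between libraries in which both were detected. Calca and Calcb are close paralogs, and reads in their similar exons could be divided between them by the E/M quantification. Every value of both genes lay within 0.05 of a whole read, unlike the fractional values of Syp below. Whether reads were divided was not tested.

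Pth (ENSMUSG00000059077, chr7:113385580-113388570, minus strand), the parathyroid hormone gene, was concentrated in 1 library of each genotype. The YAP libraries had 24, 741 and 17 reads, and the BrafYAP libraries had 0, 3 and 5743 reads. BrafYAP replicate 6 alone held 84.3% of the scaled reads of Pth (reads on the authors' scaling between libraries). Its level there was 177.5 RPM (173.0 to 182.2), and Pth ranked 475 among all genes by deposited value. YAP replicate 2 held 28.3 RPM (26.3 to 30.4), 32.4-fold above YAP replicate 1 (21.6 to 50.9). YAP replicates 1 and 3, at 0.874 and 0.616 RPM, differed by less than their counting intervals. BrafYAP replicate 2, with 3 reads, lay 2184-fold below BrafYAP replicate 6 (747 to 10595).

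Gcm2 (ENSMUSG00000021362, chr13:41101427-41111035, minus strand) was detected in the same 2 libraries and nowhere else. It had 0, 10 and 0 reads in the YAP libraries and 0, 0 and 2 reads in the BrafYAP libraries. The 10 reads of YAP replicate 2 were 3.50-fold higher than the floor of 3 reads in YAP replicate 1, before counting error. The 2 reads of BrafYAP replicate 6 lie under the floor. The counting intervals of the 2 libraries, 0.183 to 0.703 and 0.00749 to 0.223 RPM, overlap at their ends. Their ratio was not tested, and such overlap does not show equal levels. Pth was in the other order, at 28.3 RPM in YAP replicate 2 and 177.5 in BrafYAP replicate 6. The mean of Gcm2 was 2.33 scaled reads, below the minimum for the test.

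Chga (ENSMUSG00000021194, chr12:102554969-102565028, plus strand) encodes chromogranin A, present in both parathyroid cells and C cells. It had 17, 1595 and 14 reads in the YAP libraries and 6, 6 and 6808 reads in the BrafYAP libraries, so that the same 2 libraries were high as for Pth. YAP replicate 2 held 61.0 RPM (58.0 to 64.0), 98.5-fold above YAP replicate 1 (61.3 to 169.5). BrafYAP replicate 6 held 210.4 RPM (205.5 to 215.5), which was 949-fold above BrafYAP replicate 1 (436 to 2587). YAP replicate 1, which had the most Calca reads of any library, held 0.619 RPM of Chga (0.361 to 0.991).

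Scg2 (ENSMUSG00000050711, chr1:79434669-79440120, minus strand) encodes secretogranin II, the precursor of secretoneurin. It had 86, 49 and 0 reads in the YAP libraries and 9, 22 and 2660 reads in the BrafYAP libraries. BrafYAP replicate 6 held 82.2 RPM (79.1 to 85.4) and 93.1% of the scaled reads of the gene. Within BrafYAP it stood 138.0-fold above replicate 2 (90.9 to 220.5), and within YAP replicate 1 was 1.67-fold above replicate 2 (1.16 to 2.43). YAP replicate 2, with 61.0 RPM of Chga, held 1.87 RPM of Scg2 (1.39 to 2.48), and per exonic kb the ratio of Scg2 to Chga was 0.0337 there (0.0248 to 0.0447), against 5.54 in YAP replicate 1 (3.27 to 9.95) and 0.428 in BrafYAP replicate 6 (0.409 to 0.448).

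Chgb (ENSMUSG00000027350, chr2:132781278-132795079, plus strand), which encodes chromogranin B, was detected in 1 library. YAP replicate 2 had 9 reads and the other 5 libraries had 0. That is 0.344 RPM (0.157 to 0.653), 3.15-fold above the floor of YAP replicate 1 before counting error. BrafYAP replicate 6, with the highest levels of Chga and Scg2, had 0 reads of Chgb, which allows up to 0.114 RPM.

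Syp (ENSMUSG00000031144, chrX:7638471-7653256, plus strand) encodes synaptophysin, a membrane protein of small synaptic-like vesicles and a general neuroendocrine marker. It had 16.5, 25 and 17 reads in the YAP libraries and 13.2, 13.7 and 0 reads in the BrafYAP libraries. It was the 1 member of the 6 tested whose groups did not overlap, where 28.7% of the 16834 genes tested did not. Its 3 fractional values show reads divided between genes, and its span overlaps the predicted gene Gm14703. YAP replicates 1, 2 and 3 differed by less than their counting intervals. BrafYAP replicate 6 had no Syp read while it had the highest Pth, Chga, Scg2 and Calcb, and its 0 allows up to 0.114 RPM.

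**Figure D1:**
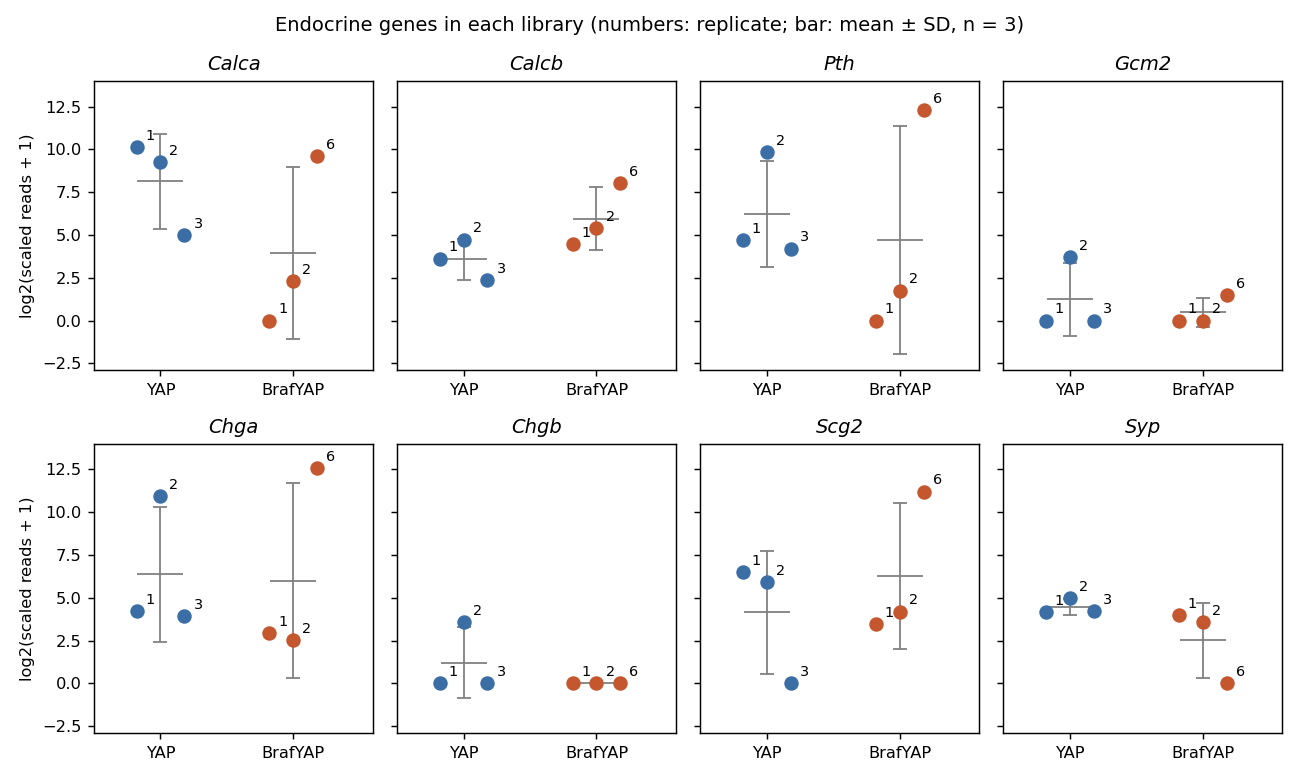
Each point is 1 library, labelled by its replicate number, for the 8 genes in YAP (blue) and BrafYAP (orange) cells. The y axis is log2(scaled reads + 1), and the grey bars give the mean ± SD of 3 libraries. BrafYAP replicate 6 is the highest library of 4 of the 6 tested genes, and YAP replicate 2 is high for Calca, Pth and Chga.

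On the scale per length, which allows levels of different genes to be compared, the order of the members changed from library to library. In BrafYAP replicate 6, Pth led with 250.02 RPKM (reads per exonic kb per M reads), followed by Chga at 76.4, Scg2 at 32.7, Calca at 16.2 and Calcb at 7.24. YAP replicate 2 had Pth at 39.9, Chga at 22.1 and Calca at 11.4, and Scg2 at 0.745 stood far lower. In YAP replicate 1 it was Calca that led, at 23.8, with Scg2 at 1.25 and Pth at 1.23, which did not differ beyond counting error. YAP replicate 3 had Pth at 0.868 and Calca at 0.646. In BrafYAP replicates 1 and 2, Calcb was the highest member, at 0.556 and 1.11. The ratio of Calca to Pth per exonic kb was 19.4 in YAP replicate 1 (12.9 to 30.3), 0.284 in YAP replicate 2 (0.253 to 0.319) and 0.0646 in BrafYAP replicate 6 (0.0601 to 0.0694), and these intervals do not overlap. Pth over Chga varied less, from 1.80 in YAP replicate 2 (1.65 to 1.97) to 3.27 in BrafYAP replicate 6 (3.16 to 3.39) and 5.48 in YAP replicate 1 (2.82 to 10.9).

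Across the 6 libraries, Pth and Chga had the most similar profiles of any pair of members (Pearson r = 0.966 on log2 scaled reads, n = 6 libraries). The next pairs were Calcb with Scg2 (r = 0.859) and Calca with Pth (r = 0.825). Calca correlated with Chga at 0.700 and with Calcb at 0.218. Syp had a negative r with each of the other 5 tested members, the lowest being -0.833 with Calcb. BrafYAP replicate 6 is the highest library of Calcb, Chga, Scg2 and Pth and the lowest of Syp, whereas Calca was highest in YAP replicate 1. These correlations are descriptions over few points.

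**Figure D2:**
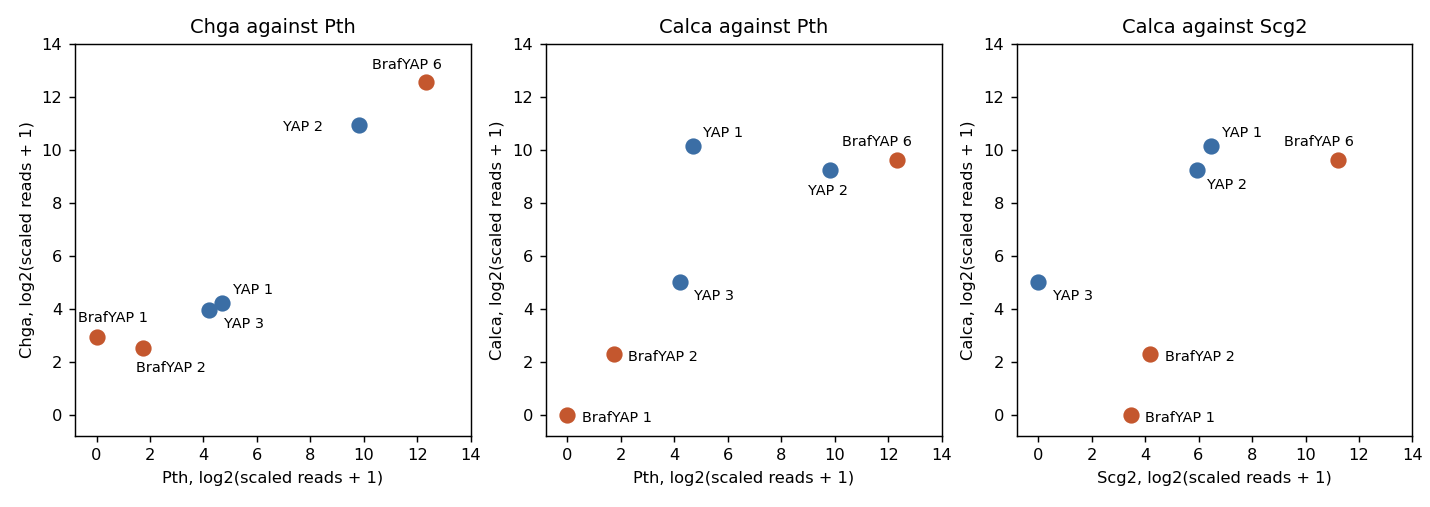
Each panel plots 1 gene against another on the log2(scaled reads + 1) scale, with 1 point per library in blue (YAP) or orange (BrafYAP). YAP replicate 2 and BrafYAP replicate 6 lie together at the top right for Pth and Chga, whereas YAP replicate 1 has high Calca with low Pth.

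The search for genes with the most similar profiles was made over 13770 genes. Herc6 (r = 0.998) and Eif2ak2 (r = 0.995), both interferon-induced genes, were closest to Calca. Zbtb20 (r = 0.990) and Klrk1 (r = 0.990) were closest to Pth, and Eng (r = 0.989) and Ccdc50 (r = 0.986) to Chga. For Scg2 these were Nkd1 (r = 0.993) and Cyp2j9 (r = 0.989), for Calcb Catspere2 (r = 0.996) and Osbpl8 (r = 0.996), and for Syp Rapgef3 (r = 0.996) and Phkg1 (r = 0.994). With n = 6, between 79 genes (for Chga) and 823 genes (for Syp) reached an r of 0.9. The profiles were alike in shape and not in range: Herc6 went from 70.5 to 584 reads and Zbtb20 from 978 to 3474 reads.

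None of the 6 tested members passed the test between genotypes, and neither did any other gene. BrafYAP was compared with YAP by limma on log2(scaled reads + 1), two-sided, and 0 of 16834 genes (0%) had an adjusted p under 0.05, with 3404 (20.2%) at an unadjusted p under 0.05. None of the 6 members had an unadjusted p under 0.05. Of all genes, 9.68% did with a higher and 10.5% with a lower mean log2 value in BrafYAP. On the deposited TPM themselves, 18 of 7319 genes (0.246%) passed the adjusted threshold, and 0 of the 4 members tested there did. Of the 6, 2 had a higher and 4 a lower mean log2 value in BrafYAP. The median log2 fold change of the 6 was -0.95, against -0.12 over all genes tested. Without the log, Pth and Chga, counted here as lower, had higher mean scaled reads in BrafYAP. These means were 316 in YAP and 1701 in BrafYAP for Pth, and 661 and 2019 for Chga.

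The mean log2(scaled reads + 1) of Calca was 8.13 ± 2.75 in the YAP libraries and 3.97 ± 5.02 in the BrafYAP libraries (SD, n = 3 each). The difference was -4.16 (SE 2.48, 95% interval -9.99 to 1.66, limma adjusted p = 0.380), smaller than the spread within BrafYAP. The smallest unadjusted p among the members was that of Calcb, at 3.57 ± 1.19 in YAP and 5.96 ± 1.86 in BrafYAP libraries, a difference of 2.39 (SE 1.06, interval -0.09 to 4.87, limma adjusted p = 0.260). Both calls changed with limma array weights, which called 4650 of the 16834 genes tested and 2 of the 6 members. The libraries with high Calca had the lowest weights: BrafYAP replicate 6 (0.221), YAP replicate 1 (0.395) and YAP replicate 2 (0.534). YAP replicate 3, with 30 reads of Calca, had the highest weight (4.81). With these weights Calca (-4.45, limma adjusted p = 0.0453) and Calcb (2.31, limma adjusted p = 0.0312) passed.

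Pth differed by -1.55 (SE 3.18, interval -9.02 to 5.92, limma adjusted p = 0.805) and Chga by -0.36 (SE 2.99, interval -7.38 to 6.67, limma adjusted p = 0.958). The sign of both turned when 1 library was left out: without YAP replicate 2 the differences were 0.24 for Pth and 1.93 for Chga, and without BrafYAP replicate 6 they were -5.37 and -3.64. Scg2 differed by 2.15 (SE 2.43, interval -3.57 to 7.86, limma adjusted p = 0.641), and its sign also turned, to -0.31, when BrafYAP replicate 6 was left out. Syp differed by -1.94 (SE 1.15, interval -4.63 to 0.75, limma adjusted p = 0.377). Its difference was -0.69 when BrafYAP replicate 6, the library in which it was at 0, was left out. The intervals of Pth, Chga and Scg2 extend by more than 3 log2 units to either side of 0, so differences of that size in either direction were not excluded by the data.

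**Figure D3:**
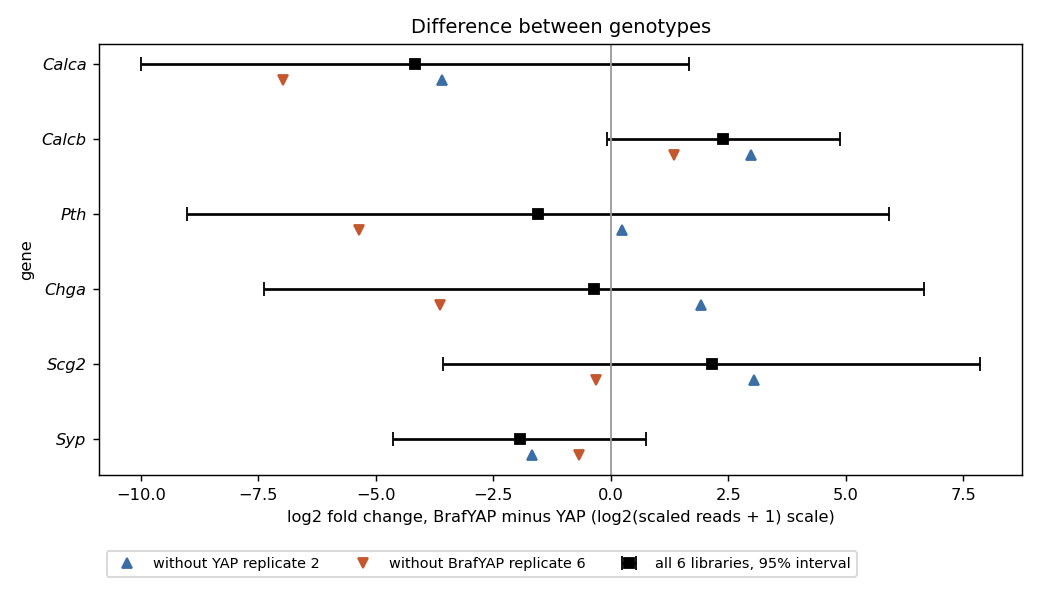
Black squares give the log2 fold change between genotypes (BrafYAP minus YAP, on the log2(scaled reads + 1) scale) of the 6 tested genes, with its 95% interval. Triangles give the value without YAP replicate 2 (blue, pointing up) or without BrafYAP replicate 6 (orange, pointing down), and all 6 intervals include 0.

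As the members differed widely between replicates of 1 genotype, the library in which each was highest was also described. BrafYAP replicate 6 was the highest library for 4 of the 6 tested members (Calcb, Chga, Scg2 and Pth), where 24.5% of all genes tested were highest in it. It was at least 5-fold above every other library for 3 of the 6 (Calcb, Scg2 and Pth), against 2.86% of all genes. A pattern of at least 5-fold in both YAP replicate 2 and BrafYAP replicate 6 over every other library was met by Pth and Chga and by 0.0356% of all genes. These fold rules were chosen after the values were seen, so the shares describe the libraries and test nothing.

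Other genes of the same pathways were taken from lists of general knowledge, and 0 genes of any list passed the adjusted threshold. Of the calcitonin family and its receptors, 8 of 10 genes were tested. Their mean log2 value was higher in BrafYAP for 3 and lower for 5. Ramp1, the receptor subunit that pairs with Calcrl to bind CGRP, had 104, 472 and 285 reads in YAP and 856, 1967 and 6028 in BrafYAP libraries. Its groups did not overlap and its log2 fold change of 2.91 (SE 0.80) missed the threshold (limma adjusted p = 0.126). Adm, which encodes the vasodilator adrenomedullin, had 2157, 839 and 1813 reads in YAP and 1057, 1755 and 201 in BrafYAP libraries. Calcr, the calcitonin receptor, had at most 13 reads, and Iapp, the amylin gene of islet beta cells, was at 0 in all libraries.

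Of the parathyroid hormone family, Pthlh encodes the hormone-related protein that many epithelia and tumors make. Pthlh had 11, 7 and 1 reads in YAP and 1059, 1468 and 7861 reads in BrafYAP libraries, without overlap (log2 fold change 8.41, SE 0.94, limma adjusted p = 0.0517). Pth and Pthlh share a receptor and an ancestral gene, but BrafYAP replicates 1 and 2, which held at most 3 reads of Pth, held 1059 and 1468 of Pthlh. Pth1r, that receptor, had 9 to 34 reads in every library. Pth2 was not analysed here.

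Of 11 genes for granins and prohormone processing, 6 were tested, 5 with a higher and 1 with a lower mean log2 value in BrafYAP. Scg5, the chaperone of a prohormone convertase, had 2741, 990 and 682 reads in YAP and 1588, 1283 and 4563 in BrafYAP libraries. Cpe, a carboxypeptidase that trims prohormones, had 48, 47 and 13 reads in YAP and 169, 251 and 3967 in BrafYAP libraries, without overlap (log2 fold change 3.87, SE 1.18, limma adjusted p = 0.148). The following genes were named after their values were seen. The convertase Pcsk2 had 23, 12 and 0 reads in YAP and 1 read in each BrafYAP library, and Pcsk1 had 19, 0 and 0 reads in YAP and 1, 0 and 16 in BrafYAP libraries. Both were at 0 in YAP replicate 3, and the library with the most Pth had 1 read of Pcsk2. Scg3 had 22 reads in BrafYAP replicate 6 and at most 1 elsewhere.

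Of 10 synaptic vesicle and release proteins, 8 were tested, 5 with a higher and 3 with a lower mean log2 value in BrafYAP. Vamp2, a vesicle fusion protein, had 216, 634 and 381 reads in YAP and 1346, 2065 and 2147 in BrafYAP libraries (log2 fold change 2.03, SE 0.47, limma adjusted p = 0.103). Rab3a, a GTPase of secretory vesicles, had 41, 190 and 59 reads in YAP and 308, 519 and 771 in BrafYAP libraries (log2 fold change 2.42, SE 0.66, limma adjusted p = 0.125). Neither was low in BrafYAP replicate 6, where Syp was at 0. Others of the list were, as named after their values were seen: Sv2a, a vesicle glycoprotein, had 10, 15 and 16 reads in YAP and 23, 10 and 0 in BrafYAP libraries, and Stx1a, a membrane fusion protein, had 297, 135 and 243 and then 210, 355 and 56 reads.

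Of 10 other C-cell and neuroendocrine genes, 7 were tested, and their summed reads ranged from 2681 to 4947 in YAP and from 2378 to 10772 in BrafYAP libraries. The neural adhesion molecule Ncam1 and the ubiquitin hydrolase Uchl1 held most of that sum in every library but BrafYAP replicate 6, and both were lowest in BrafYAP replicate 6, with 209 and 416 reads. Foxa2, an endodermal transcription factor, had 1, 2 and 10 reads in YAP and 183, 185 and 590 reads in BrafYAP libraries (log2 fold change 5.87, SE 0.81, limma adjusted p = 0.0590). Insm1, a transcription factor of neuroendocrine cells, had at most 1 read in any library. Gfra4, the GDNF-family coreceptor that works with Ret in C cells, was named after its values were seen. It had 2, 1 and 1 reads in YAP and 5, 21 and 802 reads in BrafYAP libraries, and Ret had 39, 21 and 32 and then 21, 39 and 174 reads. YAP replicate 1, with the most Calca, had 2 reads of Gfra4.

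Of 12 other parathyroid genes, 7 were tested, 5 with a higher and 2 with a lower mean log2 value in BrafYAP. In all, 11 of the 12 genes were in the table (Sox3 was not analysed here). Their summed reads ranged from 1153 to 1699 in YAP and from 1456 to 3312 in BrafYAP libraries, with YAP replicate 2 and BrafYAP replicate 6 the highest of each group, and Tbx1 was at 0 in all libraries. Vdr, the vitamin D receptor, had 901, 1141 and 675 reads in YAP and 764, 590 and 1449 in BrafYAP libraries. Pax9, a pharyngeal pouch factor, had 54, 154 and 93 reads in YAP and 310, 111 and 1020 in BrafYAP libraries. Named after their values were seen, Kl (the coreceptor Klotho) had 9 reads in YAP replicate 2, 43 in BrafYAP replicate 6 and 0 elsewhere. Casr, the calcium-sensing receptor that sets Pth secretion, had 2, 3 and 12 reads in YAP and 0, 0 and 19 in BrafYAP libraries, and Gata3 had 1, 6 and 17 and then 20, 10 and 114 reads. Casr, Kl and Gcm2 thus had at most 43 reads in any library.

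**Figure D4:**
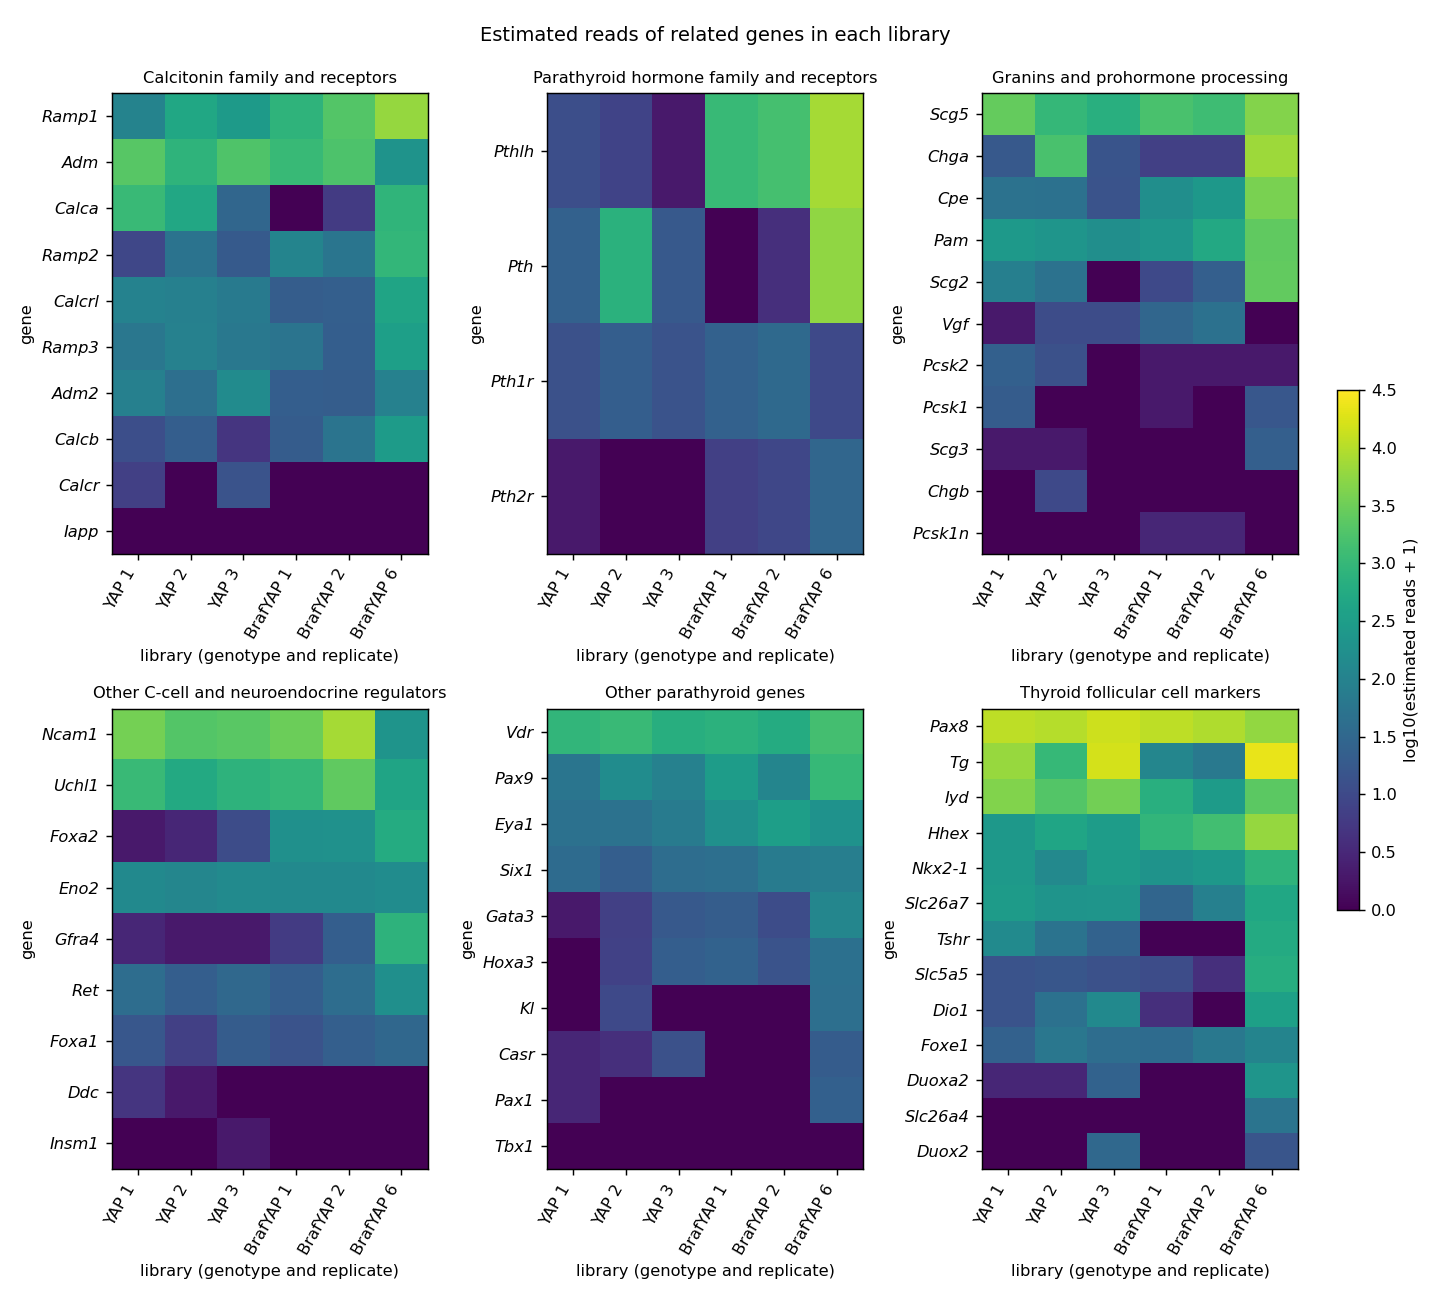
Heat maps of log10(estimated reads + 1) for 6 gene lists, with genes in rows and the 6 libraries in columns, from dark (0 reads) to yellow. BrafYAP replicate 6 has the highest value of Pth, Chga, Scg2, Cpe and Gfra4 and also of most thyroid follicular cell markers, whereas Insm1, Iapp and Tbx1 stay at or near 0 throughout.

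The libraries also differed in markers of other cells, and the part of these differences in the members' values was not tested. The follicular cell, in which Cre acts, was represented in all libraries by the thyroid transcription factor Pax8, at 5843 to 14237 reads. Of the 12 tested, 10 were highest in BrafYAP replicate 6. The summed reads of the 14 thyroid markers ranged from 14053 to 35239 in YAP and from 11340 to 41735 in BrafYAP libraries. Thyroglobulin (Tg) had 6476, 1046 and 16193 reads in YAP and 116, 66 and 22117 in BrafYAP libraries. YAP replicate 3, with high Tg, held 30 reads of Calca, 17 of Pth and 14 of Chga. The 6 immune markers summed to 174819 to 619954 reads in YAP and 57492 to 181630 in BrafYAP libraries, highest in YAP replicate 1 and lowest in BrafYAP replicate 6, and most of them were reads of the macrophage gene Lyz2. The 4 endothelial markers summed to 224 to 2686 reads in YAP and 123 to 1723 in BrafYAP libraries, with the highest sums in YAP replicate 2 and BrafYAP replicate 6. In YAP replicate 2, Kdr alone gave 2574 of the 2686 reads, whereas Pecam1 and Cdh5 were higher in another YAP library. The 5 fibroblast markers summed to 12511 to 23990 reads in YAP and 8327 to 32982 in BrafYAP libraries, and the 8 nerve and glia markers to 2334 to 3596 and 3074 to 6977, with Th at 0 in all libraries.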

How the data were processed

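The 6 libraries held RNA of sorted Kate-positive thyroid tumor cells (SMART-Seq, 12 cycles, then 8 PCR cycles, 50-nt paired reads). Per the study's methods and the labels, the authors used STAR 2.6.1d for alignment to mm10, quantified reads with Partek E/M on Ensembl 95, and deposited 1 table of TPM with 0.0001 added. Each of its columns totals 181217.6, and 0 columns lacked a sample. Low TPM values multiplied by the genomic span of a gene (GENCODE M21, introns included) were whole multiples of 1 step per library (within 0.05) for 71.7 to 76.0% of values, against 23.8 to 25.5% with the exonic length. Estimated reads were therefore (value - 0.0001) × span / step, for 34645 of 35027 genes found at 1 locus. Scaled reads use 1 step common to the libraries, so they undo the length division and keep the authors' scaling. As the sources give no strand setting for the counting, reads of genes that overlap, on the same or the opposite strand, may be shared. Reads carry no molecular identifiers, so intervals cover counting error only.

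A count model was not applied, as TPM are normalized values. BrafYAP and YAP (3 libraries each, grouped by title, no covariate) were compared by limma 3.58.1 in R 4.3.3 (eBayes with a mean-variance trend) on log2(scaled reads + 1), a scale that understates changes of low genes, limited to genes whose mean reached 10. P-values were adjusted over all genes tested (Benjamini-Hochberg), and 0.05 was the threshold. The labels do not name the animals, so p-values measure the spread between these libraries, which may in part be technical. All 8 members were named, and of each gene list those past the threshold, otherwise up to 3 with the most reads, and genes at 0. A few genes of these lists and 1 driver allele are not reported here, though the counts and sums of the lists include those genes. The 2 genes most like each tested member were also named, predicted genes passed over. Members and lists were chosen with earlier results of these data known. Alternatives were a pseudocount of 0.1 or 10, a minimum of 50 or none, the deposited values, quantile and median-ratio normalization, no trend, array weights, voom, a replicate block and each library left out. Leaving out YAP replicate 2 and BrafYAP replicate 6 together was added after seeing the data. The labels give no batch. Replicate numbers 1 and 2 occur in both groups, but nothing ties same-numbered libraries.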

Additional observations from a re-analysis of the deposited data

How the results depend on the processing

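The number of genes past the threshold, 0 of 16834, rose to 45 with a pseudocount of 10, 18 on the deposited values, 62 with quantile normalization, 20 without a trend, 4650 with array weights and 832 without YAP replicate 2 and BrafYAP replicate 6 together. With 1 library left out it ranged from 0 to 142 (3 without YAP replicate 2, 142 without BrafYAP replicate 6). It stayed at 0 with a pseudocount of 0.1, a minimum mean of 50, no filter, median-ratio factors and voom, where 2891 to 4053 genes had an unadjusted p under 0.05. Of the 6 members tested (4 on the deposited values, 5 with a minimum mean of 50, 8 with no filter), 0 were called under each alternative except array weights (2, Calca and Calcb). Samples with the same number did not deviate together (correlations -0.032 and 0.047), and with the replicate block 0 genes and 0 members were called (2532 genes and 3 members at an unadjusted p under 0.05). The direction of Calca, Calcb and Syp was kept in every alternative that gave a value. Chga turned to 0.058 with a pseudocount of 10, 0.47 on the deposited values, 1.93 without YAP replicate 2, 1.18 without BrafYAP replicate 1 and 1.39 without BrafYAP replicate 2. Pth turned to 0.60 on the deposited values, 0.24 without YAP replicate 2 and 0.79 without BrafYAP replicate 1. Scg2 turned to -2.38 with the replicate block, in which BrafYAP replicate 6 and YAP replicate 3 have no partner, and to -0.31 without BrafYAP replicate 6. Leaving out 1 library gave -6.98 to -2.18 for Calca, 1.35 to 3.14 for Calcb, -3.64 to 1.93 for Chga, -5.37 to 0.79 for Pth, -0.31 to 3.56 for Scg2 and -2.67 to -0.69 for Syp. The median log2 fold change of all genes was -0.12, and 0.01 with median-ratio factors. What causes these changes was not tested. Depth limits Chgb, Gcm2 and Syp, whose highest values are 9, 10 and 25 reads.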

Other observations

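The rule of at least 5-fold in both YAP replicate 2 and BrafYAP replicate 6 over every other library, with at least 20 reads in each of the 2, was met by 6 genes in all, named here after their values were seen. Beside Pth and Chga they were Kcnh2, Fgl2, Igha and Jchain. Kcnh2, a potassium channel gene, had 39, 238 and 0 reads in YAP replicates 1, 2 and 3 and 43, 32 and 593 in BrafYAP replicates 1, 2 and 6. Fgl2, a fibrinogen-like gene, had 209, 1520 and 111 and then 111, 99 and 1318 reads. Igha and Jchain, the heavy chain of IgA and the chain that joins its units, had 879 and 29 reads in YAP replicate 2 and 115 and 41 in BrafYAP replicate 6, with at most 8 reads in the other 4 libraries.

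The corresponding rule for YAP replicates 1 and 2 together with BrafYAP replicate 6, the libraries with high Calca, was also met by 6 genes: Calca, Iigp1, C4b, Ccl21a, Ces2e and Igflr1. Iigp1, an interferon-inducible GTPase, had 9430, 7154 and 1300 reads in YAP and 136, 152 and 9287 reads in BrafYAP libraries. C4b, a complement gene, had 435, 306 and 25.5 and then 36.4, 36.7 and 672 reads. Ccl21a, a chemokine of lymphatic vessels and lymphoid stroma, had 588, 35.6 and 0 and then 4, 0 and 430 reads, and it is 1 of several near-identical copies, so its reads are uncertain.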
